A study of Mus musculus with 2 samples.

Results

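Formins are proteins that start actin filaments and stay on the growing end, where they add actin monomers handed over by profilin. Most are held shut by their own tail until an upstream signal opens them, and the opened formin homology 2 domain then encircles the filament end. In neutrophils, which crawl by pushing actin forward at the front and contracting at the rear, they act beside the Arp2/3 complex, which makes branched filaments instead of straight ones. The formins described here are 10 genes of 4 subfamilies, namely Fmnl1, Fmnl2 and Fmnl3, then Diaph1, Diaph2 and Diaph3, then Daam1 and Daam2, then Fhod1 and Fhod3. All their probe sets were taken, which came to 15 of 45037 on the array and covered 9 of the 10 genes, among 18193 genes measured in all, since no probe set was annotated to Fmnl3. The family was chosen by the differences of Fmnl2 and Daam1, both more than 2-fold lower in the knockout-labelled array, so those 2 differences describe the choice and are not tested findings.

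RNA came from neutrophils of mouse bone marrow, sorted as CD11b+ and Ly6G+ cells with low Ly6C, and was hybridised to Affymetrix arrays. One group is labelled Jdp2 KO, from Jdp2-/- mice, and the other Jdp2 WT. Both carry the strain label C57BL/6 /129/J mixed background, and the sources used here give no age, no treatment, no number of mice pooled and no account of how Jdp2 was disrupted. Jdp2 encodes a leucine-zipper repressor of the AP-1 and ATF group. Each group is 1 array, so the spread between mice is unknown, no difference has a p-value, and precision is limited by there being 2 arrays. Values are log2 signals, and every difference is the knockout-labelled value minus the wild-type-labelled one. A gene is read from its brightest probe set, by the mean of both arrays, and it passed the level filter where at least 1 of its values reached the median of its array (5.67 for the knockout label, 5.65 for wild type).

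The label check by the targeted gene went the other way from the label. Jdp2 read 12.38 in the knockout-labelled array and 11.997 in the wild-type-labelled array at its brightest probe set, a difference of 0.38. Its second probe set, under both array medians, read 5.40 against 5.24, a difference of 0.15. The sources used here do not say whether the probes lie in a deleted part. All directions therefore refer to the arrays as labelled. The sorted cell type matched its markers on both arrays. Of 14 neutrophil markers, 12 had a probe set annotated to them alone, which leaves out the sort marker Ly6g, and all 12 passed the filter with differences from -0.43 to 0.24. The summed linear signal of these markers came to 17.46 and 17.47 as log2. Markers of other cells were not even. For scale, 3.06% of all passing genes reached 2-fold on the higher side and 2.33% on the lower side. All 6 primary granule genes of early neutrophil precursors were at least 2-fold higher in the knockout-labelled array, from Ms4a3 (1.04) to Mpo (5.09), with a summed signal of 12.64 against 10.72. For Ctsc the 2 passing probe sets ran from -0.61 to 1.05, so its call rests on the brightest. Ctsg and Prtn3 read under the median in the wild-type-labelled array, at 4.02 and 4.41. With these raised to the median they were 6.64-fold and 3.06-fold higher. Of 16 passing monocyte and macrophage markers 11 were at least 2-fold higher, with a sum of 14.98 against 14.80, and Irf8 lay under the median of both arrays. Among the 11, Ms4a6c, C1qa and C1qc came to 1.76-fold, 1.71-fold and 1.78-fold once their lower values were set to the median. The sum was mostly that of Lyz1, the brightest of the list, at 14.36 against 14.39. Of 6 passing platelet markers 3 were at least 2-fold higher, with a sum of 12.22 against 11.47. The integrin markers Itga2b (-0.34) and Itgb3 (-0.20) lay below 0, so the platelet markers did not all go the same way. The part of these cells in the formin values was not tested, and in RNA from sorted cells, fewer cells of a type and less RNA per cell cannot be told apart.

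Of the 9 measured formins, 8 passed the level filter. Fmnl2 and Daam1 were at least 2-fold lower in the knockout-labelled array, Diaph3 was 2-fold higher at the line itself, and the other 5 lay between -0.37 and 0.40. Across all 11168 genes that passed, 2.33% were at least 2-fold lower and 3.06% at least 2-fold higher. Because the family was picked for its lower members, nothing is read from their count against that share. The median of the 8 passing formins was -0.09, beside -0.04 over all passing genes. Differences went below 0 in 5 of the 8 genes, Fmnl2 and Daam1 included, and above 0 in 3, where 55.1% of all passing genes lay below 0.

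**Figure D1:**
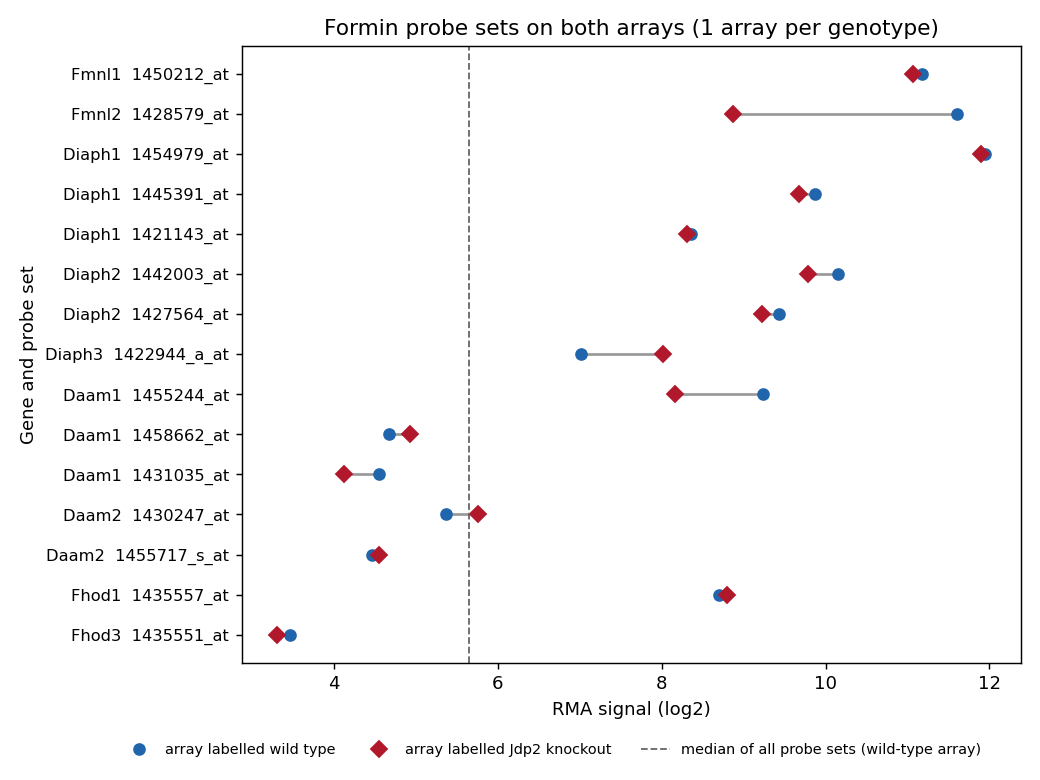
RMA signal (log2) of the 15 formin probe sets on the wild-type-labelled array (blue circles) and the Jdp2 knockout-labelled array (red diamonds), joined by a grey line, with the median of all probe sets as a dashed line. The widest gap is that of Fmnl2, at 11.60 and 8.87, and the Diaph1 points nearly coincide.

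The FMNL subfamily, whose members work mainly at the leading edge and in filopodia, was split. Fmnl2, which elongates filaments in lamellipodia, read 11.60 in the wild-type-labelled array and 8.87 in the knockout-labelled array (probe set 1428579_at). That is a difference of -2.73, or 6.66-fold lower. Its signal stood above 95.9% of all probe sets on the wild-type array and above 81.9% on the other, so both values were well clear of the array medians. It was the 10th lowest of 11168 differences. Among the 1159 passing genes with a wild-type signal at least as bright, 3 were at least 2-fold lower, namely Fmnl2, Zmpste24 (-1.81) and Acta2 (-1.06). The last 2 were named after their values were seen. The rank of Fmnl2 and this count draw on the same values by which the family was chosen, so they only describe it. Fmnl1, the leukocyte formin of the same subfamily, read 11.18 and 11.06, a difference of -0.12 (1450212_at). Both Fmnl1 values stood above at least 93.97% of probe sets. Fmnl2 and Fmnl1 have 1 probe set each here, so neither value has a second reading on the array.

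The Diaphanous subfamily includes the formin most studied in neutrophil polarity, Diaph1. Its 3 probe sets gave nearly the same result. They read 11.89, 9.68 and 8.31 in the knockout-labelled array against 11.95, 9.87 and 8.36 in the wild-type-labelled array. The differences were -0.06, -0.19 and -0.05, a range of 0.15. Diaph2, a close relative of Diaph1 that is known from endosome movement, was measured by 2 probe sets. They read 9.79 against 10.15 and 9.22 against 9.43, with differences of -0.37 and -0.21. Over the 4867 genes with several passing probe sets, the median range between probe sets of a gene was 0.39, so both Diaph1 and Diaph2 were read more evenly than the median gene.

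Diaph3 went the other way from Fmnl2 and Daam1. It encodes a formin needed for the contractile ring of dividing cells and for late steps of red cell formation. Its single probe set (1422944_a_at) read 8.01 in the knockout-labelled array and 7.01 in the wild-type-labelled array. The difference was 1.002, or 2.003-fold, and it ranked 340th from the top. With each array centred on its median it was 0.99 and no longer reached 2-fold. A list of cell division genes, written after the value of Diaph3 was known, lay to the same side. Of 17 passing division genes 16 had differences above 0, all short of 2-fold, and the median was 0.23 (0.21 to 0.31 over the alternatives), where 44.8% of all passing genes lay above 0 and their median was -0.04. Kif4, a chromosome motor, differed by 0.88. Ect2, an exchange factor needed for the contractile ring, differed by 0.59 and Prc1, a midzone bundler, by 0.46. Mki67, the usual mark of cycling cells, differed by 0.06, and Plk1, a mitotic kinase, by -0.19. The primary granule genes described above were higher in the same array, and their part in the value of Diaph3 was not tested.

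The DAAM subfamily links Wnt and Dishevelled signalling to actin. Daam1 read 8.16 in the knockout-labelled array and 9.24 in the wild-type-labelled array at its brightest probe set (1455244_at), a difference of -1.08, or 2.11-fold lower. It ranked 210th from the bottom. The next passing formin on the lower side was Diaph2 at -0.37, well short of 2-fold. On the higher side Diaph3 lay just past the 2-fold line at 1.002, and the next was Daam2 at 0.40. The other 2 probe sets of Daam1 lay under both array medians. One read 4.93 against 4.68, a difference of 0.25, and the other 4.13 against 4.55, a difference of -0.42. The 3 probe sets of Daam1 thus did not point the same way, and the 2-fold difference rests on the bright one. Averaged over all 3 it was -0.42, and it was -0.995 after a trend on signal level was removed and -0.99987, just short of 2-fold, after quantile normalisation. Daam2, the second member, known from Wnt signalling in glia, read 5.77 against 5.37, a difference of 0.40, with the wild-type value under the array median. Raising that value to the median left 0.12. Its second probe set read 4.55 and 4.46, below both medians.

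The FHOD subfamily bundles and organises filaments rather than elongating them quickly. Fhod1, which is opened by the kinase Rock and found on stress fibres, read 8.79 in the knockout-labelled array and 8.70 in the wild-type-labelled array, a difference of 0.09. Fhod3, a formin of heart muscle sarcomeres, read 3.31 and 3.47. Its values stood above only 9.07% and 11.2% of probe sets, and the gene did not pass the filter.

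**Figure D2:**
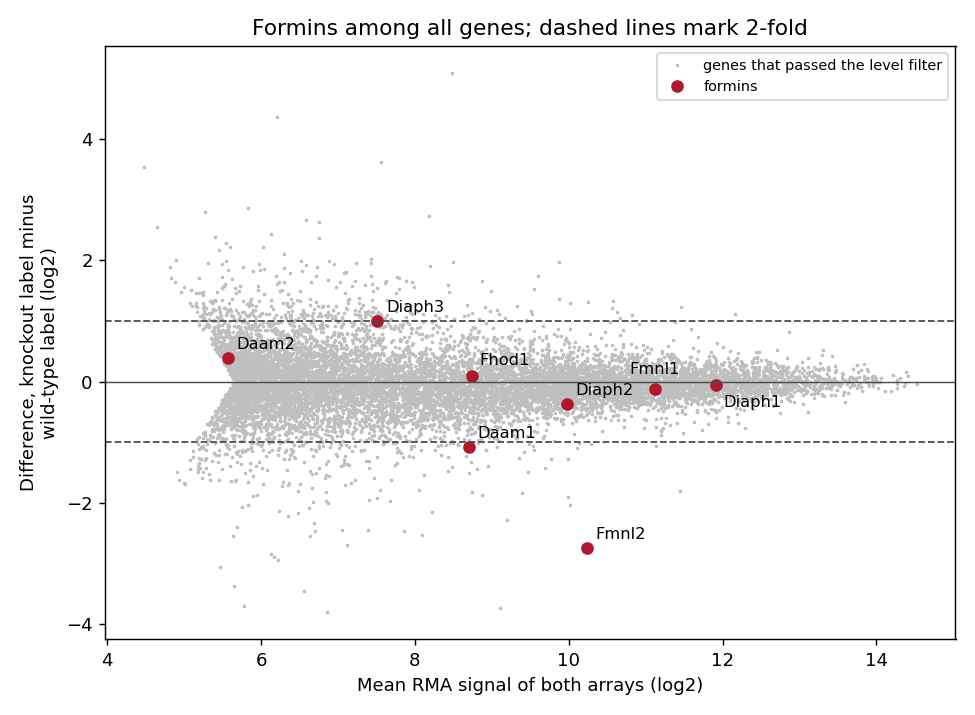
Difference between the arrays (log2, knockout label minus wild-type label) against mean signal for the 11168 genes that passed the level filter (grey) and the 8 passing formins (red). Dashed lines mark 2-fold. Fmnl2 at -2.73 lies below the band formed by most genes of like mean signal, while Daam1 at -1.08 and Diaph3 at 1.002 lie at its edges.

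How far a single probe set can be trusted was read from other genes on the same arrays. Of the 64 genes that were at least 2-fold lower by their brightest probe set and had another passing probe set, 24 were 2-fold lower at all of them (37.5%). In 54 of the 64 all passing probe sets lay below 0, and in 10 at least 1 lay above 0 (15.6%). Neither Fmnl2 nor Daam1 could be placed among these 64, since each had 1 passing probe set. With dim probe sets counted too, 128 genes were at least 2-fold lower by their brightest of several probe sets, Daam1 among them. Of these 15 were 2-fold lower at all probe sets (11.7%), and 53 had at least 1 above 0 (41.4%), as Daam1 did. Probe sets of a gene share the same RNA, and their spread says nothing of the spread between mice.

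The 5 formins outside these subfamilies held no difference of 2-fold. Inf2, which both builds and severs filaments, read 7.26 against 7.06 in the wild-type-labelled array, a difference of 0.20, and its second probe set differed by -0.06. Grid2ip, known from cerebellar synapses, differed by -0.23. Fmn2, known from the oocyte spindle, read 5.66 and 5.69 at its brightest probe set, a difference of -0.03. Its other 2 probe sets differed by -0.94 and -0.93 but lay under both medians. Fmn1 (0.63) and Fhdc1 (-0.87) did not pass the filter.

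The promoters of the formins that stood apart, and of Fmnl1 as the even relative of Fmnl2, are shown because Jdp2 is known to bind AP-1 sites (TGACTCA, or TGAGTCA on the other strand) and CRE sites (TGACGTCA, the same on both strands). Windows of 300 bases, from 250 before to 50 after an annotated start, came from RefSeq on build GRCm38.p6. They were used for 8 of the 10 genes, 10 windows in all. Diaph1 and Fhod3 were left out of the search, and whether their promoters hold these sites is not reported here. The stretches printed are the part of each window that lies before the annotated gene, read 5′ to 3′ on the gene's strand. They would carry AP-1 and CRE letters in capitals, and hold none.
Fmnl2, chr2:52857618-52857716, plus strand: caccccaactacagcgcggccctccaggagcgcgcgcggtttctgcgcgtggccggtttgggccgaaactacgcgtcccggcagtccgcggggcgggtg
Fmnl1, chr11:103170888-103171003, plus strand: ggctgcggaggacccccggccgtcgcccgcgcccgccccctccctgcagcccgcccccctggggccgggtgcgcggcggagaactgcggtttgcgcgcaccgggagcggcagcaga
Daam1, chr12:71830818-71830949, plus strand: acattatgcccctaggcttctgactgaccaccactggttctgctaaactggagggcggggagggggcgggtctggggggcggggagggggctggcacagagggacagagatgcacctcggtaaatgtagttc
Diaph3, chr14:87141248-87141474, minus strand: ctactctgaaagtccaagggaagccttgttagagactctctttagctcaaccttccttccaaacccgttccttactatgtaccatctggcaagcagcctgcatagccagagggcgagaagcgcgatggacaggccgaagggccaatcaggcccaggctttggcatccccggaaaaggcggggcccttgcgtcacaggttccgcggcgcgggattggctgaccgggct

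Across all 32851 windows of the table, 5.20% held the AP-1 letters and 1.79% the CRE letters. The whole windows of Fmnl2, Fmnl1, Diaph2, Diaph3 and Fhod1, and both windows of Daam1, held neither, which says only that these letters are not there. Daam2 held the CRE letters, 27 bases before the start in one window and 54 in the other, and Fmnl3, which was not measured, held the AP-1 letters 223 bases before its start. These sites are shown with 11 bases on each side and the letters in capitals. The Daam2 site lies inside the annotated gene, past its outermost start, and the Fmnl3 site before the annotated gene.
Daam2, chr17:49564346-49564375, minus strand: tccaagacgccTGACGTCAgagcggggcgg
Fmnl3, chr15:99370688-99370716, minus strand: atgaacagaccTGAGTCAcagatggtggt
Fmnl1 and Fmnl2 had the most G and C of the 10 windows. Their windows were 79.3% and 78.7% G or C, with 43 and 49 CG pairs, where the median window of the table had 52.7% and 7. The first Daam1 window had 58% and 13 CG pairs, and that of Diaph3 59.3% and 18. Fmnl2 had the lowest difference of the formins and Fmnl1 one near 0, and a link between promoter content and the differences was not tested.

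**Figure D3:**
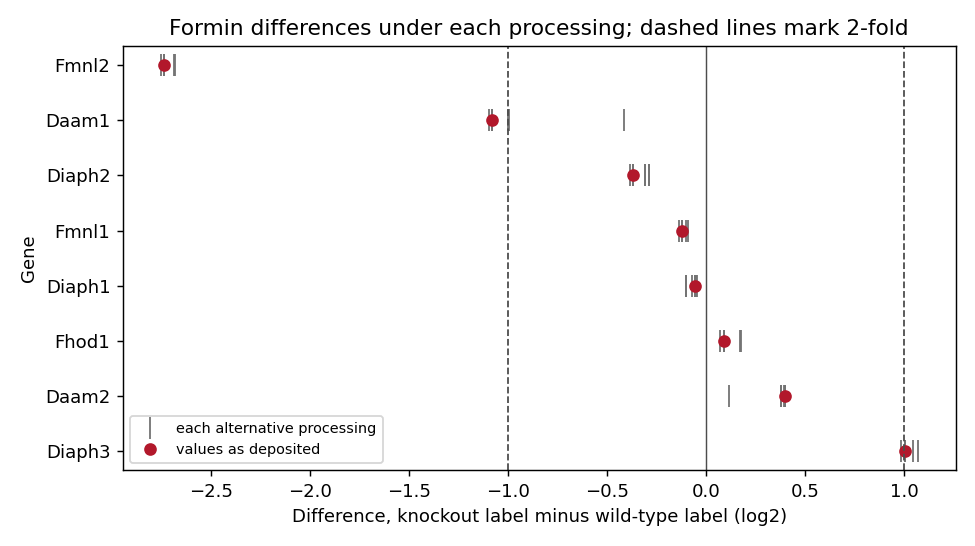
Difference between the arrays (log2, knockout label minus wild-type label) for the 8 passing formins as deposited (red) and under each alternative processing (grey ticks), with dashed lines at 2-fold. Fmnl2 stays between -2.75 and -2.68, Daam1 spans -1.09 to -0.42, and Diaph3 spans 0.99 to 1.07.

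Among 23 passing genes for formin partners and regulators, 1 was at least 2-fold lower, 1 at least 2-fold higher, and the median was -0.07. The lower one was Dvl2, encoding a Dishevelled protein, the class that Daam1 was named for binding. It read 6.11 against 7.66, a difference of -1.55, while its second probe set, under both medians, differed by 0.46. Dvl1 differed by -0.61 and -0.71 at its 2 probe sets, and Dvl3 by -0.07. The profilin genes differed in sign. Pfn1 read 13.49 against 13.66, a difference of -0.17, and the 3 probe sets of Pfn2 differed by 0.66, 0.89 and 0.86. Cttn, encoding the branch stabiliser cortactin, read 7.06 against 5.63, a difference of 1.44, but its 3 passing probe sets ran from -0.73 to 1.44. Spire1, a nucleator that works with Fmn2, differed by 0.91, and by -0.31 at its second passing probe set. Srgap2, which binds Fmnl1 and halts its filament severing, differed by -0.08, and its 4 probe sets ran from -0.68 to -0.08.

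**Figure D4:**
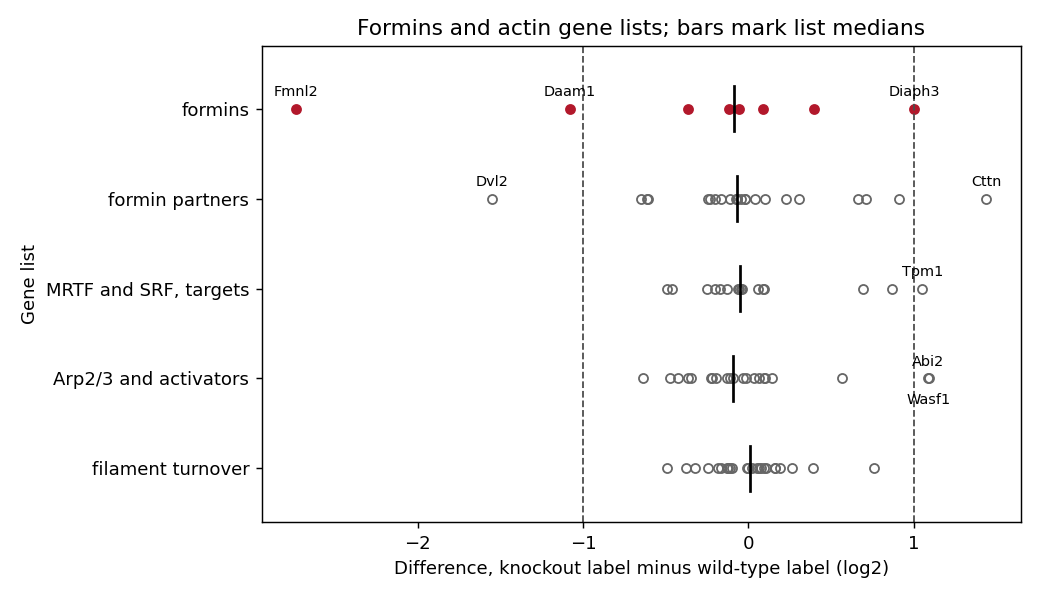
Difference between the arrays (log2, knockout label minus wild-type label) for each passing gene of the formins (red) and of 4 actin gene lists (grey), with a black bar at each median and dashed lines at 2-fold. List medians lie between -0.09 and 0.01, and Fmnl2 lies farther from 0 than any listed gene.

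Formins release the coactivators of serum response factor by using up free actin, and of 16 passing genes for these factors and their targets 1 was at least 2-fold higher, with a list median of -0.05. That gene was Tpm1, encoding a tropomyosin that coats straight filaments (1.05, second passing probe set 0.60). Myl9 differed by 0.87, Ccn1 by 0.69, and Srf itself by -0.49, with a second probe set at 0.02. Of 21 passing genes of the Arp2/3 complex and its activators, 2 were at least 2-fold higher and none at least 2-fold lower, with a median of -0.09. They were Wasf1 (1.09), at 1.67-fold once its lower value was set to the median, and Abi2 (1.09, second passing probe set -0.11), both parts of the WAVE complex, and Washc1 followed at -0.64. The 24 genes for filament turnover all stayed within 2-fold. Their median was 0.01, with no fixed sign over the alternatives (-0.08 to 0.04). The largest were Evl (0.76), Tmsb10 (-0.49) and Ssh2 (0.39). Over these 4 lists together, 1 of 84 passing genes was at least 2-fold lower (1.19%) and 4 were at least 2-fold higher (4.76%), beside 2.33% and 3.06% of all passing genes.

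Daam1 and Jdp2 lie on the same chromosome. Gene order was taken from the RefSeq gene table of GRCm38.p6. Of the 82 passing genes between them, 3 were at least 2-fold lower (3.66%) and 1 at least 2-fold higher (1.22%), with a median of -0.03. Over all passing genes these shares were 2.33% and 3.06%, and the median was -0.04. The 3 lower genes between Daam1 and Jdp2 were Acot1 (-1.97), whose close relatives could share its probes, Slc38a6 (-1.88) and Plekhg3 (-1.13). A second probe set of Plekhg3 differed by -0.10, and Slc38a6 was at 2.25-fold once its lower value was set to the array median. The second probe set of Slc38a6, under both medians, differed by -0.12. Among the 5 passing genes on each side of Daam1, Timm9 stood out 2 places away, at 6.59 against 4.21, a difference of 2.38. It was at 1.92-fold once the lower value was set to the median, and its second probe set, under both medians, differed by 0.09. The other 9 of these genes ran from -0.51 to 0.74. Fmnl2 lies on another chromosome, and its 10 nearest passing genes ran from -0.48 to 0.75 with none at 2-fold, the ends being Nr4a2 and Pkp4.

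**Figure D5:**
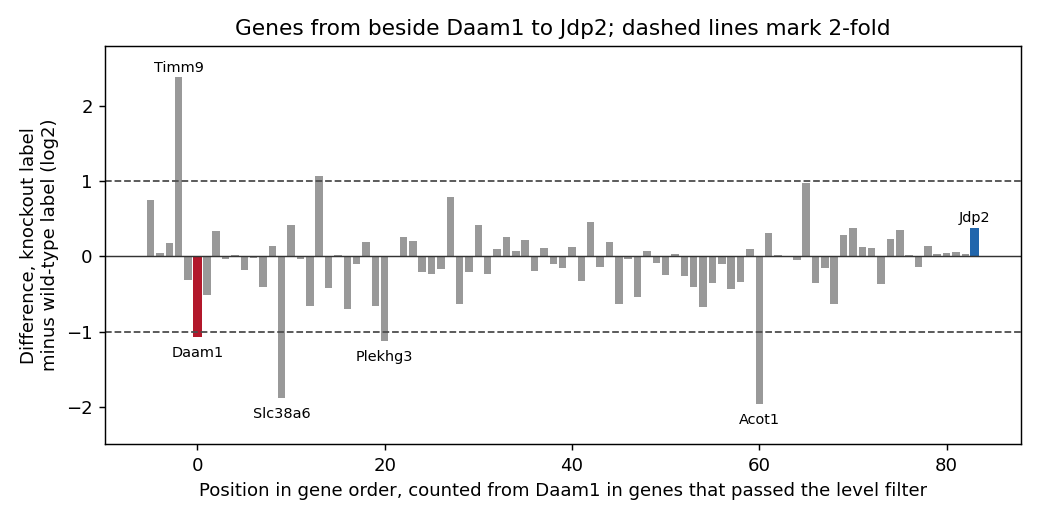
Difference between the arrays (log2, knockout label minus wild-type label) for passing genes in chromosomal order, counted from Daam1 (red) at 0, with 5 genes before it and the 82 up to Jdp2 (blue). Dashed lines mark 2-fold, and the lower bars past them besides Daam1 are those of Slc38a6, Plekhg3 and Acot1, while the tallest bar above is that of Timm9.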

How the data were processed

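The authors deposited 1 log2 value per probe set and array, computed with RMA per the submitters' processing notes, from biotin-labelled total RNA of 2 samples, 1 array each. The sources used here give neither its version nor its steps. Of 45101 probe sets, 64 controls were left out. Of the remaining 45037, 34945 had 1 gene symbol, updated by Entrez identifier where it matched (34741), 932 had several and 9160 had none; only the first were named. Of 18193 genes, 11168 passed the level filter. With 1 array per group there is no test; a difference of 1 on the log2 scale (2-fold) was the size rule. The calculation was tested on simulated arrays only for counting differences put in, which says nothing of spread between mice. Alternatives were 3 scalings (median centring, quantile, loess with span 0.3), 2 probe set averages, no shared probe sets, 3 filters, raised low values and a 1.5-fold rule. RMA gives no detection call, and weak signals hold background, which shrinks folds.

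Members and lists were chosen with earlier results of these data known. The text names all members, Jdp2, the 5 other formins, the genes of each pathway list with the largest differences or past 2-fold, the 3 genes nearest to Fmnl2 and to Daam1 in both values, and the most different chromosomal neighbours; other genes were named after their values were seen. One further gene list is not reported here. Marker lists are given by counts and ranges, with some genes named, and not gene by gene. Those not described further had passing medians of 0.10 (B cell, 5 genes), 0.30 (T and NK cell, 5), -0.78 (erythroid, 2), -0.32 (stem and progenitor, 6) and -0.17 (stromal and endothelial, 5); 3 of these had no fixed sign over the alternatives. Python 3.11.15, pandas 2.3.3, numpy 2.4.6 and statsmodels 0.14.6 were used.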

Additional observations from a re-analysis of the deposited data

How the results depend on the processing

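Fmnl2 kept its direction and stayed past 2-fold in all 10 alternatives, from -2.75 to -2.68. Only the 3 scalings could move it, since its 1 probe set is unshared and bright on both arrays. The other alternatives returned the main value of -2.73 by construction and say nothing of its stability. Daam1 fell short of 2-fold in 3 of 10, and the count of formins at least 2-fold lower was then 1 in place of 2. It was at -0.415 with the mean of all probe sets, -0.995 with the loess trend removed and -0.99987 after quantile normalisation. Only these and median centring, which left -1.09, could move Daam1, since its 1 passing probe set is unshared and above both array medians. For Daam1 too, the other alternatives returned the main value, -1.08, by construction and say nothing of its stability. Diaph3 was at 0.986 with arrays centred on their medians, which made the count of formins at least 2-fold higher 0, and it had no value without _a_at probe sets, which made that count 0 too. The 1.5-fold rule gave the same counts of 2 and 1. The formin median ran from -0.12 to -0.07. Diaph1, Diaph2 and Fmnl1 stayed below 0 and Fhod1 and Daam2 above 0 in each alternative that gave a value. Of 182 other values, 26 moved, all of them list medians. The sign turned for the B cell (-0.62 to 0.61), stem and progenitor (-0.43 to 0.36), stromal and endothelial (-0.74 to 0.004) and filament turnover (-0.08 to 0.04) lists, while erythroid ran from -0.79 to -0.07, platelet from 0.76 to 1.38 and primary granule from 2.33 to 3.62; the cause was not tested. The median range between probe sets was 0.48 over all probe sets. Of all passing genes, 260 were at least 2-fold lower and 342 higher; these counts were 171 and 183 when all probe sets of a gene were averaged, 246 and 319 when only passing ones were, 145 and 184 with both values at or above the array median, and 87 and 110 with the 75th percentile filter, and 223 were higher with low values raised. No paired analysis was possible because each group has 1 array. No alternative can show spread between mice.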

Other observations

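The genes whose pair of values lay nearest to that of Fmnl2, by straight-line distance over the 2 arrays, were Ifit1bl2, of the interferon-induced family (9.004 in the knockout-labelled array against 11.03, a difference of -2.03), Tmem216, a gene of the ciliary base (9.04 against 10.94, -1.90) and Olfml2b (9.36 against 10.63, -1.27). Their distances were 0.58, 0.68 and 1.09 log2 units, so no passing gene came closer to Fmnl2 than 0.58. Daam1 had closer company. Acad11, a fatty acid oxidation enzyme, read 8.17 against 9.26 at a distance of 0.03, Vegfd, a lymphatic growth factor, 8.14 against 9.19 at 0.05, and Cd151, a tetraspanin, 8.22 against 9.18 at 0.08. The distances draw on the same values of Fmnl2 and Daam1 by which the family was chosen, so they only describe those values. With only 2 arrays, likeness means a similar brightness and a similar difference and nothing further.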
